A study of Homo sapiens with 12 samples.

Results

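NXP800 was given to MNNG/HOS cells for 24 h and compared with its solvent at the same time, to ask how the transcriptome of these cells stood after a day of treatment. MNNG/HOS is a line derived from a human osteosarcoma, a tumour of bone-forming cells, and NXP800 is a small molecule that was first made to inhibit the HSF1 pathway and that the study examines as an activator of the kinase GCN2. The comparison used 6 of the 12 RNA-seq libraries of the series, namely 3 from cells that received DMSO and 3 from cells that received 300 nM NXP800, all harvested at 24 h. The other 6 libraries, DMSO and NXP800 at 6 h, served to estimate the spread and to ask where the late response differed from the early one. All groups were of this one cell line and carried no other treatment. The labels do not say whether replicates came from separate cultures, so p-values measure the spread between these samples, which may be technical.

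The groups of genes followed here belong to well-known programmes. Genes of DNA replication are largely driven by E2F factors once the RB protein is phosphorylated by cyclin-dependent kinases (CDKs), while genes of mitosis are switched on later in the cycle through CHR elements and CCAAT boxes bound by the MuvB complex with B-MYB and by NF-Y. Osteoblasts secrete a matrix of type I collagen with SPARC, osteopontin and other glycoproteins and pass through a RUNX2-dependent programme, which osteosarcoma cells keep only in part. Sterol and fatty acid synthesis depend on SREBP factors, and the synthesis and import of amino acids depend in part on ATF4, the transcription factor of the integrated stress response.

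The 6 libraries held 30947195 to 31947656 counts on genes, and reads on no annotated gene made up 2.73 to 3.67% of a library. Levels are in CPM on TMM-scaled library sizes, and differences are given as log2 fold changes of NXP800 over DMSO with the standard error (SE) and the p of the quasi-likelihood test of edgeR, adjusted by Benjamini-Hochberg over 15979 genes. The SE is an approximation, the absolute log2 fold change divided by the square root of the F statistic of that test. PC1 of the 6 libraries held 75.6% of the variance of log2 CPM, with scores of -52.6 to -41.4 in DMSO and 43.4 to 51.9 in NXP800. PC2 held 8.41% and followed the replicate number. Replicate 1 scored 19.8 in DMSO and 20.4 in NXP800, replicate 2 scored -16.6 and -20.5, and replicate 3 scored -2.11 and -1.06. The labelled cell type was checked against its markers. RUNX2, COL1A1, SPARC and SPP1 were expressed, whereas other osteoblast genes were near or at 0. ALPL had 1 to 4 counts in a library, BGLAP 0 to 2, SP7 0 to 1, COL1A2 0 to 6, and IBSP and DMP1 none. The mesenchymal markers VIM and CDH2 were abundant. Among epithelial genes, CDH1 and KRT5 had 0 to 2 counts, while the keratins KRT8 and KRT18 averaged 865 and 892 CPM in DMSO and EPCAM 5.78 CPM. Defining blood and endothelial genes were low, with PTPRC and LYZ at 0 to 2 counts, CD3E and HBA1 at none and CDH5 at 0 to 7. CD14 of monocytes had 57, 100 and 92 counts in DMSO and 27, 10 and 25 in NXP800.

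At 24 h, 4387 of the 15979 tested genes (27.5%) were higher in NXP800 at an adjusted p below 0.05 and 4566 (28.6%) were lower. Of these, 1075 (6.73%) were higher by over 2-fold and 1170 (7.32%) were lower by over 2-fold. The 3 values of one group lay wholly above those of the other in 59.1% of tested genes, in either direction. Counts of list members are to be read against these shares. The median log2 fold change over all tested genes was -0.00334, a value that TMM scaling tends to hold near 0. With library size only it was 0.0859, so it is no measure of a shift of all genes. In bulk RNA, fewer cells in a state and less RNA per cell cannot be told apart.

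The steepest rises and falls, among genes whose log2 CPM averaged 1 or more and whose groups did not overlap, came from several pathways. TXNIP, which encodes an arrestin-fold protein that binds thioredoxin and limits glucose uptake, had 4.99, 3.09 and 2.92 CPM in the DMSO libraries and 88.0, 102 and 94.2 CPM in the NXP800 libraries, a 25.8-fold rise (log2 fold change 4.69, SE 0.160, adjusted p = 6.7e-12). KIF26B, which encodes a kinesin-family protein, rose from 0.669, 0.168 and 0.343 CPM, which are 20, 5 and 10 counts, to 16.1, 11.7 and 6.03 CPM (log2 fold change 4.82, SE 0.394, adjusted p = 4.01e-08). In both genes the lowest NXP800 library was several times the highest DMSO library. Also among the 12 largest rises were SPNS2 (log2 fold change 4.67), which exports sphingosine-1-phosphate, PLEKHG1 (4.55), HKDC1 (4.01) of the hexokinase family, SPX (3.88), which encodes the peptide spexin, NIBAN1 (3.83), a stress-induced regulator of cell survival, LURAP1L (3.76), the non-coding RNA LINC02806 (3.73), TRIB3 (3.73), a pseudokinase gene under ATF4, and LAMP3 (3.71), a lysosomal membrane protein. LINC02806 shares 60.7% of its exon length with other annotated genes, so its counts are uncertain.

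The largest fall was that of LOC105376380, an uncharacterised locus, from 16.1, 26.0 and 17.6 CPM to 0.826, 1.25 and 1.08 CPM (log2 fold change -4.23, SE 0.262, adjusted p = 1.82e-09). IGFBP5, a secreted IGF-binding protein, had 7.29, 17.1 and 17.2 CPM in DMSO and 0.594, 1.25 and 0.957 CPM in NXP800 (log2 fold change -3.88, SE 0.369, adjusted p = 2.27e-07). In DMSO, replicate 1 was the lowest for IGFBP5. That the groups did not overlap was a condition for entering this ranking. CDKN2C, which encodes the CDK4 and CDK6 inhibitor p18, fell from 17.7, 17.8 and 16.9 CPM to 1.88, 1.10 and 1.79 CPM (log2 fold change -3.46, SE 0.146, adjusted p = 4.91e-11). E2F8, a repressor of the E2F family, fell by 3.02 on the log2 scale. Matrix and junction genes stood among the 12 largest falls, with COL15A1 (log2 fold change -3.06) and COL2A1 (-2.90) of the collagens, the secreted glycoprotein OLFML3 (-3.44) and CGNL1 (-3.48), a junction protein. The remaining ones were RASL10A (-3.57), a small GTPase, PALMD (-3.35), TM4SF18 (-3.20) and LZTS1 (-3.07).

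**Figure D1:**
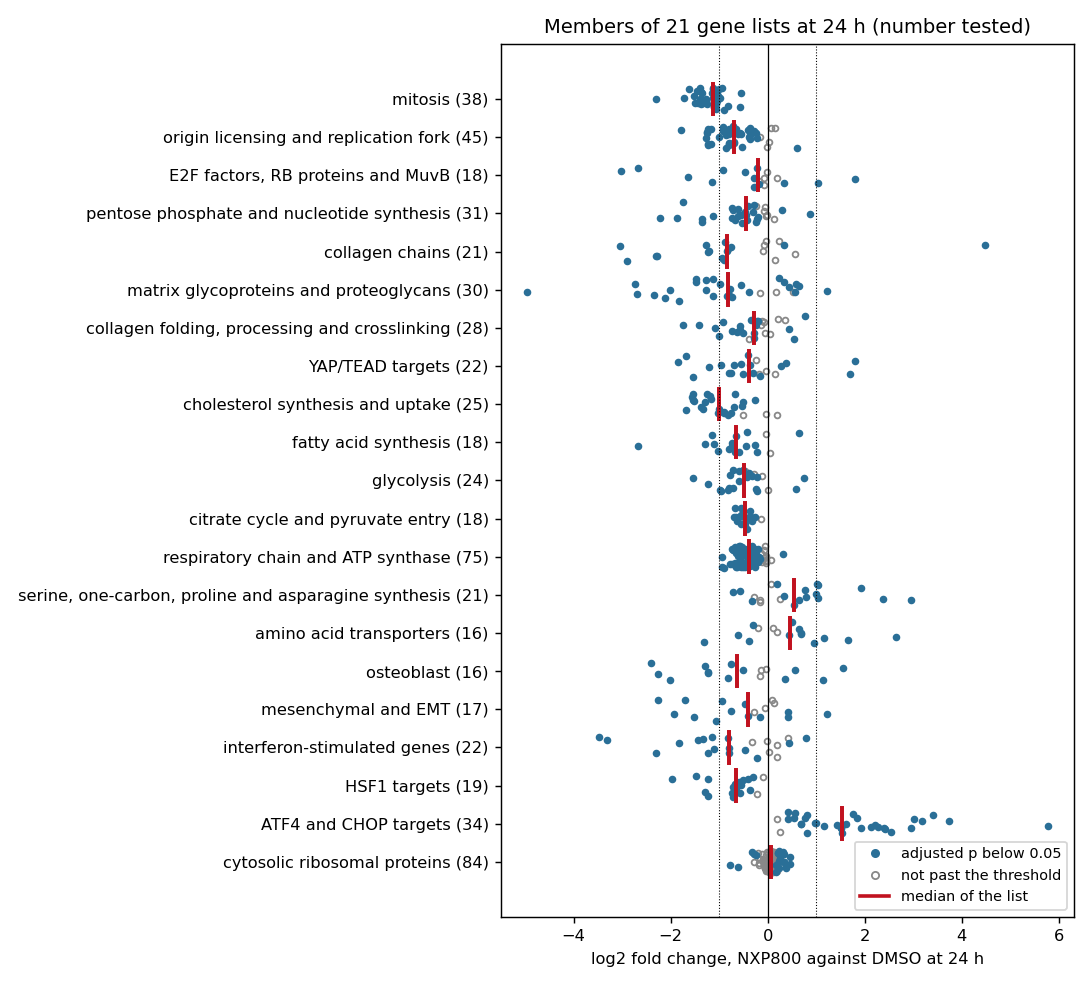
Each point is a tested gene of one of 21 lists, placed by its log2 fold change of NXP800 over DMSO at 24 h; filled points had an adjusted p below 0.05, red bars mark list medians, dotted lines mark 2-fold and the number tested stands beside each name. Mitosis genes all lie to the left of 0 (median -1.13), ATF4 and CHOP targets lie to the right (median 1.52), and respiratory chain genes (median -0.396) cluster inside the 2-fold lines.

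Mitosis genes fell together. All 38 genes of the list were tested and all 38 were lower (100%, against 28.6% of all tested genes), 32 of them by over 2-fold (84.2%, against 7.32%), with a median log2 fold change of -1.13. MKI67, the gene of the Ki-67 proliferation antigen (chromosome 10, 128096659 to 128126423 of GRCh38.p14), had 449, 424 and 456 CPM in DMSO and 151, 121 and 128 CPM in NXP800 (log2 fold change -1.73, SE 0.113, adjusted p = 3.05e-09). CDK1, the kinase that drives entry into mitosis, had 149, 148 and 142 CPM in DMSO and 57.3, 50.5 and 53.7 CPM in NXP800 (log2 fold change -1.45, SE 0.066, adjusted p = 9.13e-11). The DMSO libraries lay within a narrow band for both genes, and every NXP800 library was far below it. CCNB1, the cyclin partner of CDK1, fell from 254, 279 and 254 CPM to 118, 106 and 102 CPM (log2 fold change -1.27, SE 0.072, adjusted p = 7.64e-10). KIF20A, a kinesin of the central spindle, fell most in the list (log2 fold change -2.30), followed by MKI67 and by BIRC5 (-1.62), the gene of survivin. TOP2A, which untangles sister chromatids, fell by 1.51 on the log2 scale. The smallest fall in the list was 0.55 on the same scale. Summed over the list, the level was 6162 to 6373 CPM in DMSO and 2593 to 2963 CPM in NXP800.

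Promoters of these genes are shown because the list moved as a body and its members are known to share elements. The windows run from 250 bases before to 50 bases after the start of the gene, are taken from RefSeq (GRCh38.p14) and are written 5′ to 3′ on the strand of the gene. Capitals mark 3 motifs on either strand in the windows of CDK1, MKI67 and CCNB1, read as written or as the reverse complement. They are the CHR core TTTGAA, the CCAAT box with the letters that name it, and the E2F element, which was searched as TTCCCGC and also as TTGGCGC. In the window of PCNA, a replication gene described below, capitals mark the E2F element only. CDK1 and PCNA each have 2 starts in the table, and the one with more matches is shown.
CDK1, chr10:60778228-60778527, + strand: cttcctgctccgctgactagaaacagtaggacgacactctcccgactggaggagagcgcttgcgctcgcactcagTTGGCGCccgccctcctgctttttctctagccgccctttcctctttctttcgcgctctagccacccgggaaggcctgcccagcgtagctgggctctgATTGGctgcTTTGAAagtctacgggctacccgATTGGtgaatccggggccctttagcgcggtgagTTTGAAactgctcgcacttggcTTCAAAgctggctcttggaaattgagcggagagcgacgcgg
MKI67, chr10:128126374-128126673, - strand: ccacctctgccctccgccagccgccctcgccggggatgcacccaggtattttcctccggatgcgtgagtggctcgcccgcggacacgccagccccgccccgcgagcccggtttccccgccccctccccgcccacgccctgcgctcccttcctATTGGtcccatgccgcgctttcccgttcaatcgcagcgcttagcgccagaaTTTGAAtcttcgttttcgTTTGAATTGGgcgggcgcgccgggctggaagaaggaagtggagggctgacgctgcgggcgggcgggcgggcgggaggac
CCNB1, chr5:69166900-69167199, + strand: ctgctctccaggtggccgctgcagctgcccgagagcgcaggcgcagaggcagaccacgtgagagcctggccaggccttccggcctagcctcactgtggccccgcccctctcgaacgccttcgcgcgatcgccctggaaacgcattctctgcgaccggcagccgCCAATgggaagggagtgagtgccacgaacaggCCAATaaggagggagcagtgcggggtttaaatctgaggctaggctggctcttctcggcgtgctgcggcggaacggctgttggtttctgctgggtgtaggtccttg
PCNA, chr20:5126573-5126872, - strand: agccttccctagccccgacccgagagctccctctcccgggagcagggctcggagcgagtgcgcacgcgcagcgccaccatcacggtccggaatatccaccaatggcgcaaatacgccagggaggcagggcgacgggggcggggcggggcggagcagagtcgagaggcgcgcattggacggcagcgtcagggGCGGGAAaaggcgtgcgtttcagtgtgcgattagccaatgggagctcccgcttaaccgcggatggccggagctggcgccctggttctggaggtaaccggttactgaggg
The CDK1 window held 6 matches, the MKI67 window 4, of which a CHR core and a CCAAT box overlap, the CCNB1 window 2, both CCAAT boxes, and the PCNA window 1. The window of MCM2, another replication gene, was also searched for the E2F element, held 0 matches and is not printed. The table held a promoter for 32 of the 38 mitosis genes, and 22 of these (68.8%) contained TTTGAA, against 18.2% of the 27305 genes with a promoter in the table and 13.5% of the tested genes with one. CCAAT was found for 26 of the 32 (81.2%), against 39.7% of all genes in the table and 41.9% of tested genes. It was also found for 64.1% of replication genes with a promoter, 64.7% of fatty acid synthesis genes and 60% of ATF4 and CHOP targets. For cholesterol genes, with a promoter for 19 of 25, the share was 84.2%, and for collagens, with 15 of 21, it was 33.3%. A high share of CCAAT was therefore not particular to mitosis genes. These are letter matches, not shown binding sites.

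Genes of origin licensing and of the replication fork fell in larger number than in size. Of 45 tested, 39 were lower (86.7%) and 10 of them by over 2-fold (22.2%), and the median was -0.705. LIG1, the ligase that joins Okazaki fragments, fell from 102, 99.2 and 86.8 CPM to 30.9, 27.5 and 24.9 CPM (log2 fold change -1.79, SE 0.081, adjusted p = 9.13e-11). PCNA, the sliding clamp, fell from 259, 268 and 233 CPM to 106, 103 and 110 CPM (log2 fold change -1.25, SE 0.072, adjusted p = 9.02e-10). MCM2, a subunit of the replicative helicase, fell less, from 335, 333 and 330 CPM to 191, 170 and 186 CPM (log2 fold change -0.87, SE 0.058, adjusted p = 4.14e-09), and CDC45, which activates that helicase, fell by 1.28 on the log2 scale. In none of the 4 genes did the groups overlap. The one member that rose was ORC5 (log2 fold change 0.59), a subunit of the origin recognition complex. CDC6, GINS3, ORC2, ORC4 and RPA2 lay between -0.16 and 0.15 without passing the test. An E2F element was found in the promoters of 25 of the 39 members with a promoter in the table (64.1%), against 11% of all genes in the table and 17.3% of tested genes, and TTTGAA in 0 of the 39.

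The enzymes that feed replication with nucleotides followed. Of 31 genes of the pentose phosphate pathway and nucleotide synthesis, 23 were lower (74.2%), 2 were higher (ATIC and PGLS) and the median was -0.444. The members with the steepest falls were those of deoxynucleotide supply. TK1, thymidine kinase, fell from 247, 262 and 254 CPM to 60.1, 44.8 and 58.3 CPM (log2 fold change -2.23, SE 0.093, adjusted p = 4.09e-11), and TYMS, thymidylate synthase, from 676, 632 and 626 CPM to 189, 164 and 176 CPM (log2 fold change -1.87, SE 0.068, adjusted p = 1.17e-11). TYMS shares 47.9% of its exon length with annotated neighbours, among them ENOSF1, which can affect its counts. RRM2, the small subunit of ribonucleotide reductase, fell by 1.35 on the log2 scale.

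The regulators of the cycle did not move as a body. Of 18 E2F factors, RB proteins and MuvB subunits, 10 were lower (55.6%), 3 were higher (E2F5, LIN37 and E2F7) and 5 passed in neither direction. E2F1, an activator of replication genes, fell from 84.6, 86.0 and 77.7 CPM to 37.4, 39.1 and 34.8 CPM (log2 fold change -1.16, SE 0.070, adjusted p = 1.47e-09), E2F2, another activator, fell by 2.67 and MYBL2, the gene of B-MYB, by 1.64 on the log2 scale. E2F7, a repressor, had 64.0, 48.0 and 43.1 CPM in DMSO and 201, 214 and 122 CPM in NXP800 (log2 fold change 1.79, SE 0.167, adjusted p = 1.81e-07), opposite to its relative E2F8. LIN37 of the MuvB core rose by a log2 fold change of 1.05, and 54% of its exon length is shared with other annotated genes.

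Among cyclins and kinases of G1, 5 of 8 were lower and 1 was higher. CCND3, a D-type cyclin, fell from 155, 152 and 164 CPM to 56.8, 38.8 and 54.4 CPM (log2 fold change -1.65, SE 0.103, adjusted p = 1.95e-09), and CDK2 fell by 0.94 on the log2 scale. CCND1, the most studied D-type cyclin, had 1011, 941 and 919 CPM in DMSO and 1067, 1021 and 893 CPM in NXP800, so the groups overlapped and the difference did not pass (log2 fold change 0.05, SE 0.081, adjusted p = 0.59). CCND2 was close to silent in DMSO, with 5, 4 and 0 counts, and had 66, 85 and 71 counts in NXP800 (adjusted p = 1.47e-07). CDKN1A, which encodes the CDK inhibitor p21, rose from 17.6, 14.1 and 18.1 CPM to 55.2, 63.1 and 45.4 CPM (log2 fold change 1.72, SE 0.118, adjusted p = 5.28e-09). CDKN1B (p27) was 41.0, 36.1 and 38.7 CPM in DMSO and 40, 36.0 and 36.9 CPM in NXP800 (log2 fold change -0.04, adjusted p = 0.708), and its sign changed with the scaling by library size alone (0.05). CDKN1C (p57) had only 13 to 15 counts in DMSO libraries and 23 to 39 in NXP800 libraries, a difference that passed (adjusted p = 0.00693). CDKN2A and CDKN2B, the genes of p16 and p15, had 0 counts in all 6 libraries. CDK inhibitors therefore moved in both directions, with p18 down and p21 up.

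Targets of p53 moved in both directions too, with 9 of 21 tested higher (42.9%) and 5 lower (23.8%), and a median of 0.207. CDKN1A and PHLDA3 (log2 fold change 1.61), an inhibitor of AKT, rose most. MDM2, the ubiquitin ligase that restrains p53, had 52.2, 48.8 and 53.2 CPM in DMSO and 55.3, 54.4 and 50.2 CPM in NXP800 and did not pass the test (log2 fold change 0.05, SE 0.067, adjusted p = 0.527). DDB2, a damage-recognition protein, fell by 1.59 on the log2 scale.

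**Figure D2:**
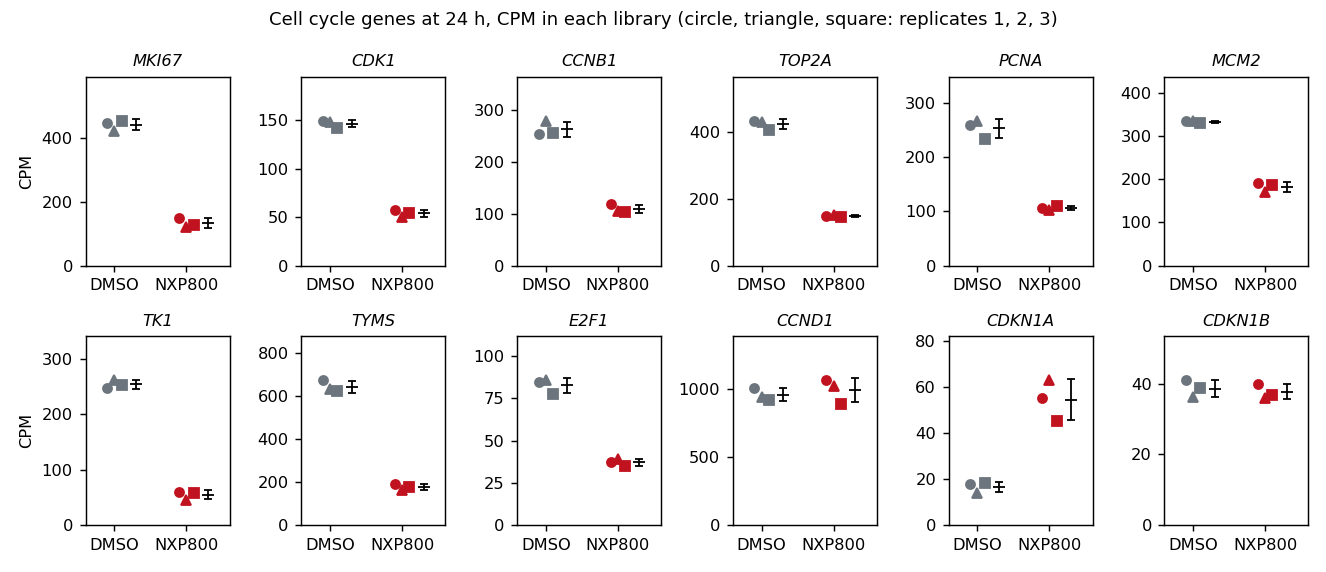
CPM on a linear axis from 0 for 12 cell cycle genes in each 24 h library; grey symbols are DMSO, red symbols NXP800, the symbol shape gives the replicate number, and black bars are mean ± SD (n = 3). The 3 NXP800 libraries lie below the 3 DMSO libraries for MKI67, CDK1, CCNB1, TOP2A, PCNA, MCM2, TK1, TYMS and E2F1, above them for CDKN1A, and the groups overlap for CCND1 and CDKN1B.

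Matrix genes were mostly lower. Of the 21 tested collagen chain genes 12 were lower (57.1%) and 7 of these by over 2-fold (33.3%), with a median of -0.84. COL1A1, which encodes the α1 chain of type I collagen, had 357, 566 and 473 CPM in DMSO and 212, 326 and 286 CPM in NXP800 (log2 fold change -0.76, SE 0.157, adjusted p = 0.000611). The groups did not overlap, and replicate 1 was the lowest in both. COL5A2, a chain of type V collagen, fell further, from 44.3, 75.0 and 63.0 CPM to 10.2, 15.5 and 11.8 CPM (log2 fold change -2.28, SE 0.163, adjusted p = 8.21e-09), and so did COL8A1 (-2.30). The collagens that were higher were COL5A1 (log2 fold change 0.33), whose call was lost without DMSO replicate 3 (adjusted p = 0.0997) or NXP800 replicate 2 (adjusted p = 0.116), and COL5A3, which had 0 counts in the DMSO libraries and 2, 3 and 3 counts in the NXP800 libraries and is given no fold change. Among genes that fold, process and crosslink collagen, 17 of 28 were lower (60.7%) and 3 higher (MIA3, BMP1 and COLGALT2), but only 4 fell by over 2-fold. PCOLCE, an enhancer of procollagen cleavage, fell from 167, 210 and 195 CPM to 60.0, 48.2 and 61.5 CPM (log2 fold change -1.75, SE 0.100, adjusted p = 7.86e-10), and LOXL1, a crosslinking oxidase, by 1.41 on the log2 scale.

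Of 30 tested matrix glycoproteins and proteoglycans, 20 were lower (66.7%), 13 of them by over 2-fold (43.3%), and 7 were higher, with a median of -0.815. SPARC, a collagen-binding glycoprotein of bone, fell from 490, 459 and 415 CPM to 137, 91.7 and 107 CPM (log2 fold change -2.02, SE 0.130, adjusted p = 2.69e-09). THBS1, thrombospondin 1, fell from 479, 531 and 514 CPM to 106, 86.1 and 109 CPM (log2 fold change -2.34, SE 0.136, adjusted p = 9.81e-10). EFEMP1, fibulin 3, fell from 93.7, 138 and 135 CPM to 16.3, 17.6 and 21 CPM (log2 fold change -2.74, SE 0.153, adjusted p = 6.18e-10). In all 3 genes the groups were several-fold apart. FN1, fibronectin, fell less, from 271, 288 and 240 CPM to 179, 154 and 132 CPM (log2 fold change -0.78, SE 0.129, adjusted p = 7.84e-05). ELN, elastin, was a rare transcript with 14, 15 and 11 counts in DMSO and 0, 0 and 1 count in NXP800. TNC, tenascin C, went the other way, from 279, 276 and 233 CPM to 693, 662 and 491 CPM (log2 fold change 1.23, SE 0.115, adjusted p = 2e-07), and it was the only glycoprotein of the list to rise by over 2-fold.

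Proteases of the matrix and their inhibitors were divided, with 9 of 27 tested higher (33.3%) and 11 lower (40.7%), close to the shares among all tested genes for the rises. MMP2, gelatinase A, fell from 230, 218 and 223 CPM to 104, 81.0 and 103 CPM (log2 fold change -1.22, SE 0.091, adjusted p = 1.43e-08). MMP13, a collagenase, fell from 4.38, 3.53 and 3.19 CPM to 0.891, 0.314 and 0.223 CPM (log2 fold change -2.96, SE 0.310, adjusted p = 6.86e-07) and PLAT, tissue plasminogen activator, fell by 1.81 on the log2 scale. MMP1, another collagenase, rose by 1.91 on the log2 scale, but DMSO replicate 1 (2.24 CPM) stood apart from the other DMSO libraries (0.572 and 0.549 CPM), and without it the log2 fold change was 2.91. MMP10 had 2, 0 and 3 counts in DMSO and 19, 7 and 12 counts in NXP800 (adjusted p = 0.000767).

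Integrins and laminins were lower for 15 of 28 (53.6%) and higher for 6 (21.4%). ITGA8, an integrin of mesenchymal cells, had 2.71, 6.46 and 6.46 CPM in DMSO and 0.726, 0.690 and 0.542 CPM in NXP800 (log2 fold change -2.99, SE 0.314, adjusted p = 7.04e-07), while ITGB3, the β3 chain, rose from 3.31, 2.15 and 2.71 CPM to 14.1, 9.25 and 9.41 CPM (log2 fold change 2.00, SE 0.218, adjusted p = 1.07e-06). Exons of other annotated genes cover 33.2% of ITGB3. Targets of YAP and TEAD, which respond to adhesion and to the stiffness of the matrix, were lower for 14 of 22 (63.6%). CCN2, a matricellular protein, fell from 119, 181 and 178 CPM to 40.9, 44.1 and 48.2 CPM (log2 fold change -1.84, SE 0.175, adjusted p = 2.18e-07), and CCN1 from 238, 376 and 386 CPM to 150, 216 and 212 CPM (log2 fold change -0.79, SE 0.189, adjusted p = 0.00199). As for COL1A1, replicate 1 was the lowest library of each group for both. The members that rose were FOXF2, AXL, GADD45A and IGFBP3, the last by 1.79.

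**Figure D3:**
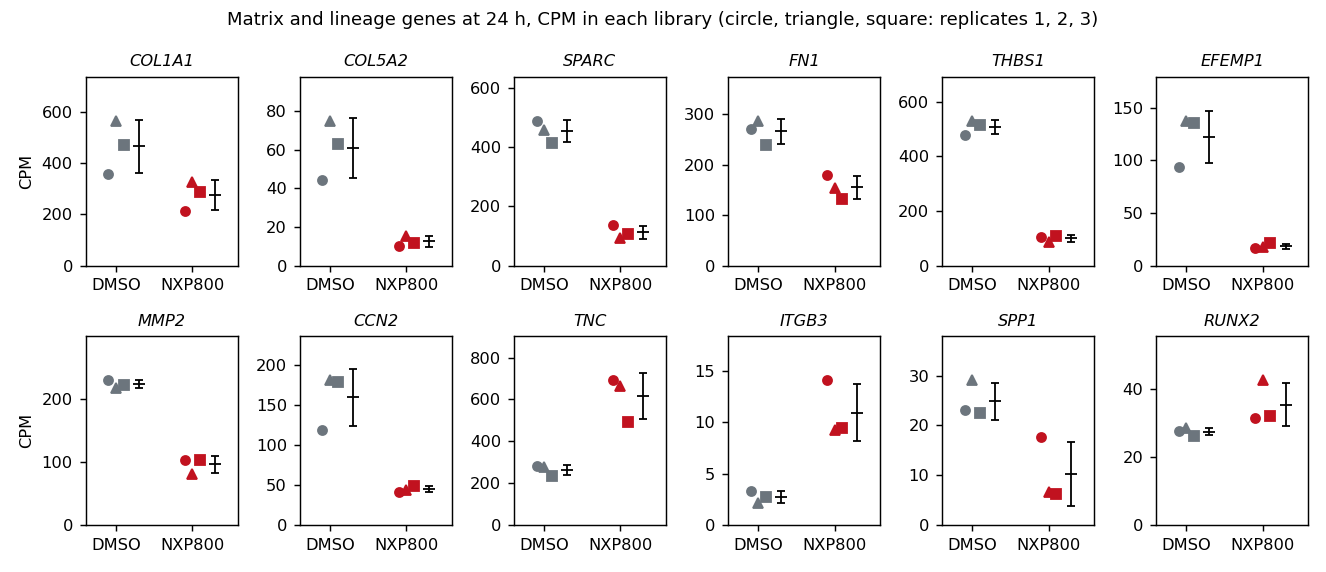
CPM on a linear axis from 0 for 12 matrix and lineage genes in each 24 h library; grey symbols are DMSO, red symbols NXP800, the symbol shape gives the replicate number, and black bars are mean ± SD (n = 3). The NXP800 libraries lie below the DMSO libraries for SPARC, THBS1, EFEMP1 and MMP2 and above them for TNC, ITGB3 and, by a smaller margin, RUNX2.

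Metabolic genes divided by pathway. Of 25 tested genes of cholesterol synthesis and uptake 22 were lower (88%), 13 of them by over 2-fold (52%), and none was higher, with a median of -1. HMGCS1, which makes HMG-CoA, fell from 71.7, 113 and 113 CPM to 33.5, 42.8 and 38.7 CPM (log2 fold change -1.37, SE 0.149, adjusted p = 9.98e-07). INSIG1, the sterol-sensing retention protein, had 57.6, 112 and 114 CPM in DMSO and 13.8, 33.7 and 40.1 CPM in NXP800 (log2 fold change -1.69, SE 0.299, adjusted p = 0.00015). For both genes replicate 1 was the lowest library of each group, and the groups did not overlap. The 3 members that did not pass were PMVK, STARD4 and TM7SF2. HMGCS1 shares 37.7% of its exon length with another annotated gene.

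Fatty acid synthesis followed the same direction, with 15 of 18 genes lower (83.3%) and ACSL1 higher. FADS2, a desaturase of polyunsaturated fatty acids, fell from 205, 507 and 488 CPM to 29.9, 62.7 and 94.1 CPM (log2 fold change -2.68, SE 0.343, adjusted p = 5.8e-06). SCD, which makes monounsaturated fatty acids, fell from 957, 1701 and 1691 CPM to 320, 682 and 776 CPM (log2 fold change -1.29, SE 0.258, adjusted p = 0.000468), and FASN, fatty acid synthase, from 1001, 1492 and 1405 CPM to 591, 614 and 707 CPM (log2 fold change -1.03, SE 0.122, adjusted p = 2.75e-06). The spread among DMSO libraries was wide for these genes, with replicate 1 lowest in each group, and no NXP800 library reached the lowest DMSO library. SREBF1, which encodes the factor SREBP1, fell by 0.59 on the log2 scale (adjusted p = 0.00222).

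Glycolysis was lower for 18 of 24 genes (75%), though only ALDOC and SLC16A3 passed 2-fold, and its median was -0.49. LDHA, lactate dehydrogenase A, fell from 1489, 1397 and 1451 CPM to 826, 649 and 740 CPM (log2 fold change -0.97, SE 0.081, adjusted p = 4.9e-08). SLC2A1, the glucose transporter GLUT1, fell from 570, 536 and 496 CPM to 332, 291 and 304 CPM (log2 fold change -0.79, SE 0.070, adjusted p = 9.95e-08). GAPDH, often used as a reference gene, fell from 9770, 8894 and 8532 CPM to 7006, 5166 and 5902 CPM (log2 fold change -0.59, SE 0.102, adjusted p = 0.00012). Hexokinase 2, HK2, rose from 62.7, 63.2 and 74.4 CPM to 106, 121 and 107 CPM (log2 fold change 0.74, SE 0.078, adjusted p = 7.23e-07), and ENO2 was the other member that was higher. ALDOC, an aldolase, fell by 1.53 and SLC16A3, the lactate exporter MCT4, by 1.23 on the log2 scale.

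Most of the listed mitochondrial genes fell, each by less than 2-fold. Of 75 nuclear genes of the respiratory chain and ATP synthase 61 were lower (81.3%), 1 was higher (NDUFC2) and none passed 2-fold, with a median of -0.396 and an extreme of -0.95 for UQCR10, a subunit of complex III. UQCR10 had 171, 170 and 176 CPM in DMSO and 87.7, 83.4 and 96.0 CPM in NXP800. Of 18 genes of the citrate cycle and pyruvate entry 17 were lower (94.4%), again none by 2-fold, and IDH3A did not pass. DLAT, a subunit of pyruvate dehydrogenase, had the largest fall of that list (log2 fold change -0.69). For comparison, cytosolic ribosomal protein genes had a median of 0.0602, with 20 of 84 higher (23.8%) and 5 lower, and these genes have many near-identical copies. Their count of rises moved with the library left out, from 12 without NXP800 replicate 1 to 32 without NXP800 replicate 2.

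Amino acid metabolism moved upward. Of 21 genes of serine, one-carbon, proline and asparagine synthesis, 13 were higher (61.9%, against 27.5% of all tested genes), 7 of them by over 2-fold (33.3%, against 6.73%), and the median was 0.548. CTH, which makes cysteine from cystathionine, rose from 8.33, 5.55 and 4.46 CPM to 49.3, 49.0 and 44.2 CPM (log2 fold change 2.96, SE 0.147, adjusted p = 2.04e-10). ALDH1L2, a mitochondrial folate enzyme, rose from 16.5, 8.88 and 6.97 CPM to 54.2, 66.0 and 47.4 CPM (log2 fold change 2.37, SE 0.220, adjusted p = 1.78e-07). ASNS, asparagine synthetase, rose by 1.92 on the log2 scale from a low level, 1.47, 1.14 and 0.858 CPM in DMSO, to 5.12, 4.36 and 3.70 CPM in NXP800. PHGDH, at the entry of serine synthesis, had 501, 385 and 395 CPM in DMSO and 564, 440 and 532 CPM in NXP800, overlapping ranges that did not pass (log2 fold change 0.26, SE 0.119, adjusted p = 0.0711). With the replicate number as a block the same comparison of PHGDH gave an adjusted p of 0.000932. The members that were lower were SHMT1, MTHFD1 and MTHFD2L, cytosolic or minor enzymes of one-carbon metabolism. Exons of another annotated gene cover 49.3% of ASNS, which can affect its counts and so the low level given here.

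Of 16 amino acid transporters 9 were higher (56.2%) and 4 lower. SLC6A9, a glycine transporter, rose from 11.8, 7.77 and 7.62 CPM to 58.1, 54.1 and 57.9 CPM (log2 fold change 2.64, SE 0.130, adjusted p = 1.86e-10). SLC7A11, the cystine-glutamate exchanger, rose from 127, 73.2 and 60.8 CPM to 250, 198 and 137 CPM (log2 fold change 1.17, SE 0.225, adjusted p = 0.000343). DMSO replicate 1 came close to NXP800 replicate 3 for SLC7A11 without reaching it. SLC1A3, a glutamate transporter, fell by 1.31 on the log2 scale. Beside TXNIP, its relative ARRDC4 rose (log2 fold change 2.72), and TRIB2 fell from 47.5, 61.5 and 47.5 CPM to 9.44, 7.49 and 9.64 CPM (log2 fold change -2.56), opposite to its relative TRIB3. Targets of NRF2 gave no common direction, with 7 of 19 higher, 3 lower and a median of 0.234 that became -0.0143 without NXP800 replicate 1. HMOX1, haem oxygenase, rose by 1.38 on the log2 scale. Of 33 genes of autophagy and the lysosome 15 were higher (45.5%) and 6 lower. SQSTM1, the autophagy receptor p62, rose from 625, 532 and 642 CPM to 1538, 1418 and 1624 CPM (log2 fold change 1.35, SE 0.087, adjusted p = 2.98e-09), and CTSB, a lysosomal protease, rose by 0.98 on the log2 scale.

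**Figure D4:**
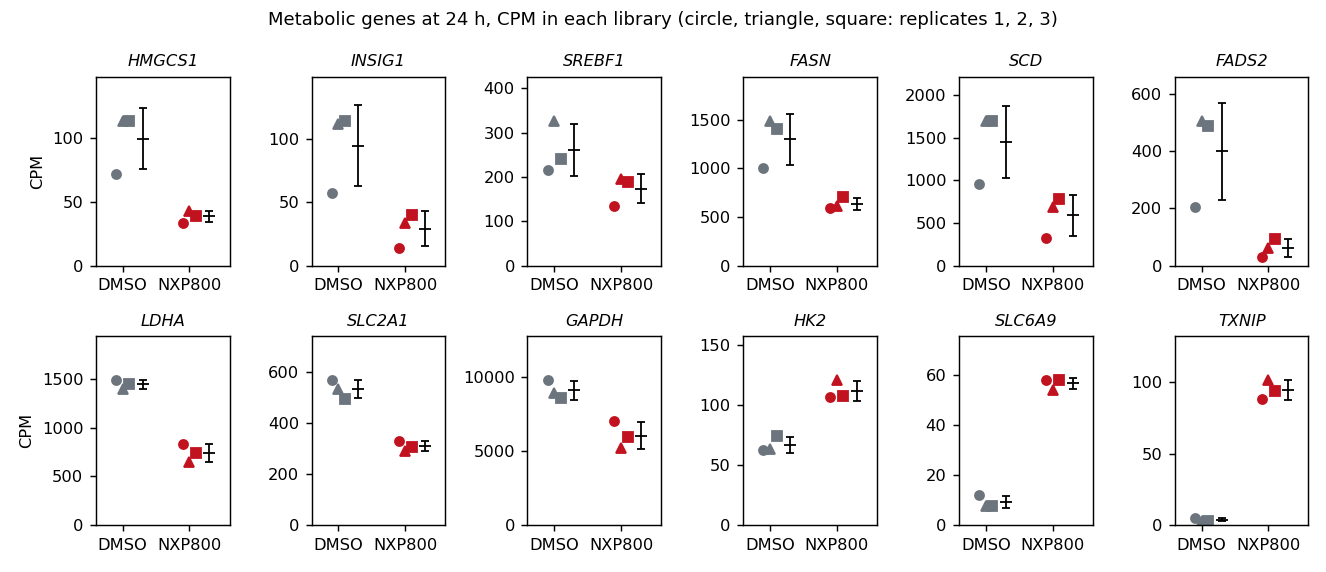
CPM on a linear axis from 0 for 12 metabolic genes in each 24 h library; grey symbols are DMSO, red symbols NXP800, the symbol shape gives the replicate number, and black bars are mean ± SD (n = 3). Lipid genes (HMGCS1, INSIG1, SREBF1, FASN, SCD, FADS2) and LDHA, SLC2A1 and GAPDH are lower in all NXP800 libraries, HK2, SLC6A9 and TXNIP are higher, and replicate 1 (circles) is the lowest DMSO library of each lipid gene.

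Lineage genes of bone were lower where they encode matrix or membrane proteins and included transcription factors that were higher. Of 28 osteoblast genes 16 were tested, 9 of them were lower (56.2%) and 4 higher (25%), with a median of -0.639 that shrank to -0.125 when rare transcripts were not filtered out. ENPP1, which makes pyrophosphate and restrains mineralization, fell from 26.4, 38.6 and 33.6 CPM to 6.27, 6.08 and 6.25 CPM (log2 fold change -2.40, SE 0.12, adjusted p = 2.13e-10), and PHEX, a mineralization peptidase, fell by 2.26 on the log2 scale. SPP1, osteopontin, had 23.0, 29.1 and 22.4 CPM in DMSO and 17.6, 6.71 and 6.29 CPM in NXP800 (log2 fold change -1.29, SE 0.292, adjusted p = 0.0013). NXP800 replicate 1 lay much nearer to the DMSO libraries than the other two for SPP1, and without it the log2 fold change was -1.94. The 4 that rose were RUNX2, DLX5, MSX2 and DLX3, all transcription factors. RUNX2, the master regulator of osteoblasts, rose from 27.6, 28.4 and 26.1 CPM to 31.3, 42.5 and 31.8 CPM (log2 fold change 0.36, SE 0.108, adjusted p = 0.00879), with a log2 fold change of 0.23 without NXP800 replicate 2. MSX2 rose from 14.4, 9.68 and 11.6 CPM to 28.0, 26.3 and 24.4 CPM (log2 fold change 1.14, SE 0.12, adjusted p = 7.23e-07) and DLX3, at 1.22 CPM or less in all libraries, by 1.56 on the log2 scale.

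Mesenchymal markers were lower for 10 of 17 genes (58.8%). PDGFRA, a receptor of platelet-derived growth factor, fell from 55.7, 61.4 and 50.3 CPM to 18.9, 17.4 and 15.3 CPM (log2 fold change -1.70, SE 0.090, adjusted p = 3.69e-10), PDGFRB by 1.53, THY1 by 2.26 and S100A4 by 1.93 on the log2 scale. VIM, vimentin, fell from 5891, 4861 and 5360 CPM to 4254, 3338 and 3982 CPM (log2 fold change -0.48, SE 0.092, adjusted p = 0.000345). CDH2, N-cadherin, averaged 59.8 ± 6.44 CPM without NXP800 and 63.1 ± 3.80 CPM with it (SD, n = 3) and did not pass (adjusted p = 0.455). ZEB2, a repressor of epithelial genes, rose from 8.26, 7.67 and 9.58 CPM to 20.2, 22.1 and 17.4 CPM (log2 fold change 1.23, SE 0.131, adjusted p = 8.05e-07), and ZEB1 and TWIST2 were the others that were higher. Other transcription factors of the list did not rise. TWIST1 was lower by over 2-fold, and SNAI1, SNAI2 and PRRX1 did not pass.

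Of 8 tested epithelial genes 5 were higher (62.5%) and 2 lower. OCLN, occludin of tight junctions, rose from 3.21, 3.03 and 3.37 CPM to 17.5, 25.8 and 19.1 CPM (log2 fold change 2.7, SE 0.176, adjusted p = 3.12e-09). ESRP1, an epithelial splicing regulator, rose by 2.35 from 0.268, 0.404 and 0.343 CPM to 1.88, 1.94 and 1.40 CPM, and EPCAM rose by 0.81 on the log2 scale, from 5.69, 5.78 and 5.87 CPM to 10.1, 10.2 and 10.2 CPM. CLDN3 and CLDN7 were the others that were higher. The keratins KRT8 (log2 fold change -0.65) and KRT18 (-0.43) fell, and because they are abundant the summed level of the list was lower, at 1745 to 1792 CPM in DMSO and 1120 to 1387 CPM in NXP800, with CDH1 and KRT5 near 0.

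Other lineages gave few tested genes. In the chondrocyte list, SOX9 rose from 117, 119 and 124 CPM to 138, 136 and 144 CPM (log2 fold change 0.21, SE 0.060, adjusted p = 0.00638), whereas COL2A1, which it is known to activate, was among the steepest falls, and COL9A2 and COL9A3 were lower. Of 5 tested adipocyte genes 3 were lower. PPARG, the adipogenic nuclear receptor, fell from 59.9, 67.4 and 70.1 CPM to 35.6, 36.9 and 43.3 CPM (log2 fold change -0.77, SE 0.102, adjusted p = 8.52e-06), and FABP4, its target, had 34, 163 and 75 counts in DMSO and 2, 3 and 7 counts in NXP800. In the smooth muscle list 4 of 8 were lower and none was higher, with MYL9, a myosin light chain, down by 1.40 on the log2 scale. Neuronal genes were lower for 3 and higher for 2 of 5. Blood and endothelial genes summed to at most 4.88 CPM in a library, and VWF had 15 to 17 counts in DMSO and 2 to 6 in NXP800. Osteoclast genes were lower for 2 of 4.

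Stress and signalling genes are given briefly. Of 34 tested ATF4 and CHOP targets 32 were higher (94.1%), 22 of them by over 2-fold (64.7%), and PHGDH and SLC7A5 did not pass. The ATF4-C/EBP element TTGCATC, on either strand, was found in 9 of the 30 members with a promoter in the table (30%), against 2.26% of tested genes with one. The windows of ATF3, GDF15, ASNS and DDIT3 held 0 matches to this element and are not printed. HSF1 targets were lower for 17 of 19 (89.5%), with HSPA4 and HSPA4L not passing and a median of -0.649. ER chaperones and genes of ER-associated degradation were divided, with 8 higher and 8 lower of 24. In the BCL2 family 7 of 15 were higher and 2 lower. The BH3-only gene HRK had 1, 3 and 8 counts in DMSO and 33, 44 and 71 counts in NXP800. BIK, another, rose by 2.04 on the log2 scale from 7, 11 and 8 counts in DMSO. Both were rare transcripts, and they do not stand for the other members that were higher. BAD, also pro-apoptotic, fell from 13.1, 14.6 and 12.5 CPM to 5.68, 4.86 and 4.59 CPM (log2 fold change -1.41, SE 0.12, adjusted p = 6.64e-08). Interferon-stimulated genes were lower for 14 of 22 (63.6%), 9 of them by over 2-fold (40.9%). IFIT1 had 52, 65 and 56 counts in DMSO and 9, 7 and 2 counts in NXP800, and IRF1 and EIF2AK2 were the members that were higher. Immediate-early genes were higher for 11 of 21 (52.4%). MYC rose from 20.4, 17.7 and 20.5 CPM to 48.7, 59.7 and 50.2 CPM (log2 fold change 1.44, SE 0.142, adjusted p = 3.4e-07), and KLF4, a transcription factor linked to cell cycle exit, from 15.4, 12.3 and 13.4 CPM to 52.7, 59.2 and 52.8 CPM (log2 fold change 2.00, SE 0.118, adjusted p = 1.06e-09).

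The response at 24 h was then set beside that at 6 h, where 25% of the same genes were higher, 27.8% lower and 11.2% over 2-fold in either direction. Each response was measured against the DMSO libraries of its own time. Of the genes called at 24 h, 2639 were higher and 2959 lower at both times, while 163 were higher at 24 h and lower at 6 h and 175 the reverse. Of the 2245 genes that differed by over 2-fold at 24 h, 870 did so in the same direction at 6 h and 1375 did not. For 820 of these 1375 the difference of the responses itself passed in the direction of the 24 h change. Across all tested genes that difference was positive for 1924 (12%) and negative for 2205 (13.8%). With the replicate number as a block these became 2945 and 3339. The 6 h libraries held 6.66 to 8.14% of reads on no annotated gene, more than the 24 h libraries, so an effect of time and one of the library set cannot be told apart in this comparison.

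Mitosis genes fell late. The difference was negative for 37 of the 38 mitosis genes, against 13.8% of all tested genes, and at 6 h 17 of the 38 were lower, 5 were higher and the median was -0.154. At 6 h neither the log2 fold change of MKI67, -0.19 (adjusted p = 0.159), nor that of TOP2A, -0.12 (adjusted p = 0.0782), passed. The difference of the 2 responses was -1.54 for MKI67 (adjusted p = 4.74e-06) and -1.39 for TOP2A (adjusted p = 3.33e-08). For replication genes 27 of 45 were already lower at 6 h, with a median of -0.294, and the difference was negative for 23. CDC45 was at 0.01 at 6 h, with a difference of -1.29 (adjusted p = 1.23e-06), whereas PCNA was already at -0.91, with a difference of -0.34 (adjusted p = 0.0191).

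Matrix genes followed in part. The difference was negative for 14 of 30 glycoproteins and proteoglycans and 8 of 21 collagens. FN1 turned, from a log2 fold change of 0.50 at 6 h (adjusted p = 0.00335) to -0.78 at 24 h, and SPP1 and MMP13 were near 0 at 6 h (-0.01 and 0.03). LOXL1 had fallen by 6 h (-1.52) and showed no called difference (0.11, SE 0.235, adjusted p = 0.767). In metabolism the difference was negative for 13 of 25 cholesterol genes and for 4 of 21 genes of serine and related synthesis. CTH rose by 4.26 at 6 h and by 2.96 at 24 h on the log2 scale, with a difference of -1.31 (adjusted p = 0.000255). Inflammatory genes also rose more at 6 h than at 24 h. Of 15 tested, 14 were higher at 6 h with a median of 2.24, and 6 were higher at 24 h with a median of 0.136, and the difference was negative for 10. Fitted on the 24 h libraries alone, 3 were higher at 24 h. PTGS2, cyclooxygenase 2, went from a log2 fold change of 3.96 to 1.31 between 6 h and 24 h, and CXCL8, interleukin 8, from 5.05 to 1.78. STC1, a secreted glycoprotein hormone, turned from 1.40 to -1.47, with levels of 15.1, 11.2 and 8.65 CPM in DMSO and 5.71, 4.26 and 2.68 CPM in NXP800 at 24 h.

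The largest positive differences were those of KIF26B, S100P, FENDRR, C1QTNF1, ATP6V0D2 and ABCA3. ABCA3, a lipid transporter of lysosome-related organelles, rose at 24 h from 12.6, 10.7 and 14.9 CPM to 46.4, 51.4 and 62.2 CPM (log2 fold change 2.07, SE 0.142, adjusted p = 5.42e-09) and stood at -0.06 at 6 h (difference 2.13, adjusted p = 2.74e-06). S100P, a calcium-binding protein, rose from 1.34, 1.24 and 1.24 CPM to 10.6, 13.6 and 12.4 CPM (log2 fold change 3.26, SE 0.227, adjusted p = 6.22e-09) with 0.41 at 6 h (difference 2.85, adjusted p = 3.17e-05). FENDRR, a long non-coding RNA beside FOXF1, stood at 2.58 on the log2 scale late and at 0.04 early, and ATP6V0D2, a subunit of the lysosomal proton pump, at 1.92 and -0.30. C1QTNF1, a secreted adipokine relative, turned from -0.95 at 6 h to 1.43 at 24 h (difference 2.38, adjusted p = 1.31e-06). KIF26B and also SPNS2, both among the largest rises at 24 h, were already higher at 6 h (1.42 and 2.64) and rose further.

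**Figure D5:**
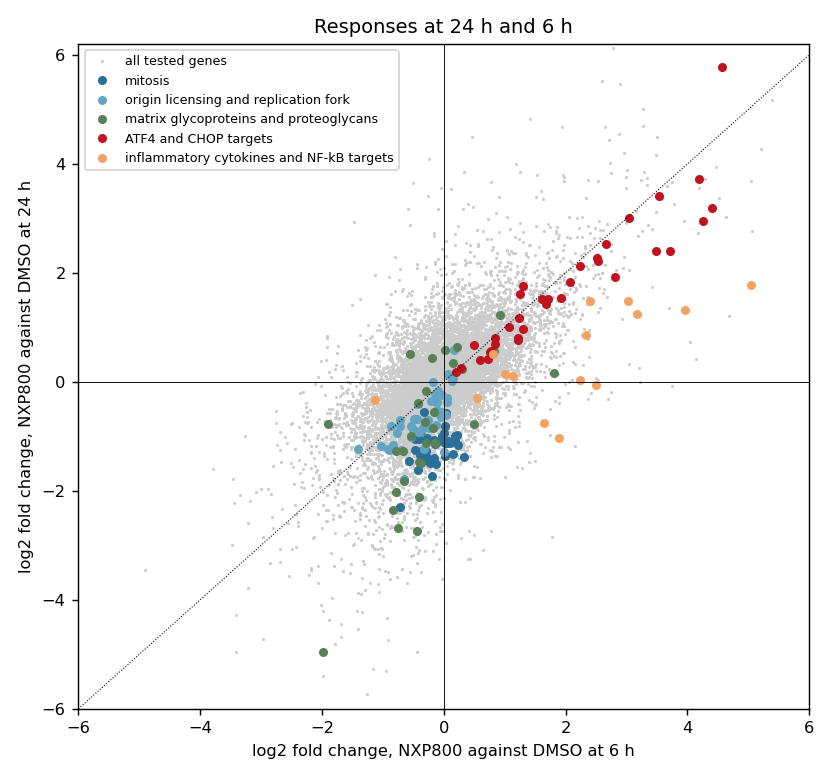
Log2 fold change of NXP800 over DMSO at 24 h (vertical) against 6 h (horizontal) for the tested genes, grey, with 5 lists in colour; the dotted line marks equal responses and 12 genes lie outside the axes. Mitosis genes (dark blue) lie near 0 at 6 h and near -1 at 24 h, and most inflammatory genes (orange) lie to the right of the line, with CSF1 to its left and medians of 2.24 at 6 h and 0.136 at 24 h.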

How the data were processed

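MNNG/HOS RNA was measured as RNA-seq in 12 libraries, 3 each of DMSO and 300 nM NXP800 at 6 h and 24 h, grouped by their labels. The deposited values are raw read counts per RefSeq gene symbol. Per the labels, the authors trimmed reads with fastp 0.20.1, aligned them with STAR 2.7.5a and counted them with HTSeq 0.12.4, without normalization. The paper names a strand-specific library kit, but the strand setting and mode of the counting are not given in the sources used here. The 5 counter rows that name no gene, such as reads on no feature (2.73 to 3.67% at 24 h), were left out.

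The analysis used edgeR 4.0.16 in R 4.3.3 (TMM scaling, filterByExpr, quasi-likelihood test, 4 group means over all 12 libraries, Benjamini-Hochberg adjustment over 15979 of 43236 genes). A gene was called at an adjusted p below 0.05, and over 2-fold beyond a log2 fold change of 1. CPM used TMM-scaled library sizes. Libraries held 30947195 to 31947656 counts on genes at 24 h, so counting error is small beside the spread between replicates except for rare transcripts. Replicates differed by more than sampling noise (chi-square per degree of freedom 10.5 to 28.6 at 24 h), so none was counted as a duplicate. The replicate numbers in the labels pair the libraries: after removal of group means, same-numbered NXP800 and DMSO libraries correlated across genes with r of 0.284 to 0.322 at 24 h and 0.159 to 0.329 at 6 h, against at most 0.058 for other numbers.

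The 40 gene lists were written from general knowledge, and they and the comparison were chosen with earlier results of these data known. The text draws on a rule that gives 301 genes: the 12 largest rises and falls at 24 h, list anchors, up to 4 called members each way per list and the 6 largest differences each way between 24 h and 6 h. The largest changes needed a log2 CPM averaging 1 or more. The text names a subset of these, and a few other list members, chosen after values were seen. Some genes of the rule are not reported here. Promoters came from the RefSeq table and motifs were matched as letters on both strands. The authors' genome build is hg38. Exon overlap was taken from GENCODE on either strand, and 26 of 137 genes with values shared over 10% of their exon length. Reads were counted on RefSeq genes, so an overlap does not show that the counts of a gene were affected. In a simulation that changed 200 genes 2-fold at 24 h, 149 were recovered by edgeR with 15 other calls among 15622 genes, and 123 with 7 other calls for the difference of the responses. The simulated libraries had no pairing by replicate number, and far fewer genes changed than the 56.0% called at 24 h. These rates may therefore not hold for the data. Alternatives were DESeq2 1.42.0 and its size factors, library size only, other filters on low counts, the 24 h libraries alone, the replicate block, stricter calls and each library left out.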

Additional observations from a re-analysis of the deposited data

Results flagged for a closer look

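For 99 of the 137 genes with values in the text, the response to NXP800 differed between 24 h and 6 h by the contrast of both responses in the quasi-likelihood test of edgeR, with p-values after Benjamini-Hochberg adjustment from 3.33e-08 to 0.0467. Values here are that difference, the log2 fold change at 24 h minus the one at 6 h. An effect of time and one of the library set cannot be told apart in it.

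Genes of mitosis had differences of -1.57 for KIF20A, -1.54 for MKI67, -1.39 for TOP2A, -1.20 for BIRC5, -1.19 for CDK1 and -0.98 for CCNB1, all of them further down at 24 h. Those of replication and nucleotide supply ranged more widely, with -1.67 for TK1, -1.32 for TYMS, -1.29 for CDC45, -1.14 for LIG1, -0.72 for RRM2, -0.37 for MCM2 and -0.34 for PCNA, and ORC5 lay on the other side at 0.42. Regulators of the cycle fell further at 24 h, with -2.56 for E2F8, -1.82 for E2F2, -1.31 for MYBL2, -1.27 for CDKN2C, -0.82 for E2F1, -0.78 for CCND3 and -0.55 for CDK2, and so did DDB2 at -0.97. CDKN1A and CDKN1B stood lower relative to DMSO than at 6 h, by -0.45 and -0.48, while the difference was 0.56 for CCND1, 1.23 for CDKN1C and 1.53 for PHLDA3.

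Secreted matrix proteins and collagens had differences of -2.37 for OLFML3, -2.30 for EFEMP1, -2.25 for COL2A1, -1.91 for COL15A1, -1.87 for COL5A2, -1.51 for THBS1, -1.45 for PCOLCE, -1.28 for FN1, -1.24 for COL8A1, -1.23 for SPARC and -0.79 for CCN2. COL5A1 lay on the other side, at 1.04. Proteases, junction and adhesion proteins gave -2.99 for MMP13, -2.92 for CGNL1, -1.81 for ITGA8, -1.66 for PLAT and -0.66 for MMP2, against 1.24 for ITGB3 and 1.58 for IGFBP3.

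The difference was negative for 13 of 25 cholesterol genes and 6 of 18 fatty acid genes, and among those named it was -1.80 for FADS2, -0.74 for HMGCS1, -0.59 for SREBF1 and -0.56 for FASN. SCD (adjusted p = 0.164) and INSIG1 (adjusted p = 0.119) did not pass. In glycolysis 6 of 24 differences were negative and 2 positive, with -1.01 for ALDOC, -0.41 for SLC16A3 and -0.40 for LDHA, and SLC2A1, GAPDH and HK2 did not pass. DLAT of pyruvate entry was at -0.32. CTH was at -1.31 and TRIB2 at -0.63, whereas the difference was positive for some single genes, with 0.65 for HMOX1, 0.74 for SQSTM1, 0.82 for CTSB and 1.42 for TXNIP.

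Bone and mesenchymal genes had -1.88 for PHEX, -1.69 for ENPP1, -1.28 for SPP1, -1.12 for PDGFRA, -0.94 for S100A4, -0.78 for MYL9, -0.76 for PDGFRB and -0.76 for CDH2, and the rare FABP4 -3.12 with PPARG at -0.42. KRT8 was at -0.49, while the other junction and lineage genes gave 0.24 for SOX9, 0.68 for EPCAM, 0.80 for OCLN and 1.14 for DLX3.

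Signalling genes that were high at 6 h came down, with -3.26 for CXCL8, -2.87 for STC1, -2.64 for PTGS2, -0.92 for MYC and -0.59 for KLF4. Other genes that fell further were -2.89 for LOC105376380, -2.47 for IGFBP5, -2.20 for TM4SF18, -1.82 for PALMD, -1.02 for RASL10A, -0.87 for BAD and -0.58 for LZTS1. Among the large rises the difference was 3.40 for KIF26B, 2.85 for S100P, 2.55 for FENDRR, 2.38 for C1QTNF1, 2.22 for ATP6V0D2, 2.13 for ABCA3 and 2.03 for SPNS2. It was 1.67 for PLEKHG1, 1.34 for LAMP3, 1.09 for NIBAN1, 0.88 for SPX and 0.77 for LURAP1L.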

How the results depend on the processing

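Direction and calls of named genes were mostly stable under the alternatives. Of their values, 1754 stayed on their side of the threshold with their sign, 5 passed it newly (all PHGDH), 2 lost it (COL5A1) and 3 changed sign (CDKN1B). List medians were less stable: 410 values stayed within the SD of the medians of the 3 replicate numbers, 104 moved and 5 were reversed. The epithelial median went from 0.705 to 0.198 with DESeq2. That of immediate-early genes went from 0.33 to 0.635 without NXP800 replicate 1, and that of smooth muscle genes from -0.405 to -0.238 without NXP800 replicate 3. CDKN1B was at 0.05237 with library size only and between -0.0847 and 0.0204 with a library left out, and it set the median of the CDK inhibitors, which moved to 0.0524 and over the same range. The median of NRF2 targets ranged from -0.0143 to 0.343 with a library left out and that of neuronal genes became 0.253 with at least 10 counts in every library, a filter that tested 13419 genes and left no blood or endothelial gene. With that filter 646 genes were higher and 776 lower by over 2-fold, and 1 adipocyte gene was lower. Among NRF2 targets 11 were higher without a filter on low counts. Of inflammatory genes 3 were higher in the 24 h libraries alone. Of ribosomal protein genes 38 were higher with library size only, which moved the median of all genes to 0.0859 and the share of rises among calls from 49 to 58.7%. With a library left out, 12 to 32 ribosomal protein genes were higher and 1 to 2 osteoclast genes lower.

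By calls over 2-fold only, members lower numbered 1 for G1 cyclins, 4 for E2F factors, 10 for replication, 7 for collagens, 4 for collagen processing, 13 for glycoproteins, 5 for proteases, 4 for integrins, 4 for YAP targets, 13 for cholesterol, 5 for fatty acids, 2 for glycolysis, 6 for nucleotides, 0 for respiratory chain and citrate cycle, 5 for mesenchymal, 1 each for smooth muscle, chondrocyte and osteoclast, 5 for HSF1 targets and 9 for interferon genes. Members higher numbered 1 for CDK inhibitors, 4 for p53 targets, 7 for serine synthesis, 3 each for transporters, NRF2 targets and ER chaperones, 2 each for autophagy and epithelial genes, 4 for immediate-early genes and 0 for ribosomal proteins. PC1 held 92.5% on the 500 most variable genes, an alternative added after seeing the data. With the replicate block, 2945 differences between 24 h and 6 h were positive and 3339 negative. At 24 h 10411 genes were called with the block and 8953 without, 8947 of them in both, and apart from PHGDH the block changed no call of a named gene. Where a stricter call, another gene set or fewer libraries do not account for a change by construction, the cause was not tested. Depth limits what can be said of KIF26B, CCND2, COL5A3, COL8A1, ELN, MMP10, MMP13, ESRP1, IFIT1, HRK, BIK, CXCL8, VWF and FABP4, each with fewer than 10 counts in at least 1 of the 24 h libraries.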
